A study of Octopus bimaculoides with 16 samples.

Results

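The eye of the octopus Octopus bimaculoides was compared with its olfactory organ, the head sense organs for light and for odour. A gene entered the comparison when it had at least 10 CPM in either organ, where CPM is reads scaled to a library total of 1000000. It was called higher in one organ when log2(CPM + 1) differed by at least 2, that is 4-fold with a pseudocount of 1 CPM. Of the 15842 genes in the deposited table, 9445 entered and 2148 were called. RNA of dissected tissue was sequenced from animals for which the labels name no treatment, age or number. The eye and the olfactory organ had 1 library each, run on 2 sequencing lanes that the deposited table merges. The series holds 8 libraries of 7 tissues, and the other 5 tissues serve here as context: optic lobe, which is the part of the brain behind the eye, statocyst, which is the balance organ, mantle skin, dissociated cells of sucker rims, and whole sucker cup with 2 libraries named automated and manual.

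The cephalopod eye is a camera eye with a lens in front of a retina of rhabdomeric photoreceptors. Their opsin signals through a G protein of the Gq class and phospholipase C, and their axons run to the optic lobe. The olfactory organ is a small patch of sensory epithelium below the eye, near the mantle opening, in which ciliated receptor neurons lie among supporting and mucous cells. It is open to sea water, as are skin and suckers.

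The files and the reference table give these genes National Center for Biotechnology Information LOC identifiers without functions, so marker genes of photoreceptors, lens, muscle or ciliated cells could not be looked up, and neither tissue label could be checked against a list of markers. The reference table names only 2 of the measured genes. OTX (LOC106873941), a homeobox transcription factor of head, brain and eye development in other animals, reached 94.3 CPM in eye and 3.08 CPM in olfactory organ. It was thus 30.6-fold higher in eye (22.6 to 42.3). Outside these organs statocyst had 29.9 CPM of OTX, and every other library had 1.44 CPM or less. For the gene of the secreted signal hedgehog (LOC106871116), eye gave 21 reads and olfactory organ none. There 3 reads are worth 0.210 CPM, and the exact upper limit of 0 reads is 0.259 CPM. It lay below the entry level in both organs and reached 13.1 CPM in statocyst. The ranges in parentheses after ratios are 95% intervals and cover only the error of counting reads.

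The eye library held 12241705 reads and the olfactory organ library 14264654, so that 1 read was worth 0.0817 CPM in eye and 0.0701 CPM in olfactory organ. With 1 library for each organ, no significance test was possible, and variation between animals or dissections was not measured. In bulk tissue, fewer cells of a type and less RNA per cell cannot be told apart. The comparison that selected the genes also gives their ratios, which are therefore a description. CPM values are not divided by transcript length, so levels are set side by side between tissues, gene by gene.

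Higher in eye were 1025 genes, 10.9% of those that entered, and higher in olfactory organ were 1123, or 11.9%. Together they made up 22.7% of the 9445 genes. The automated and manual libraries of whole sucker cup, compared by the same rule, differed for 3 of 8035 genes, or 0.0373%. Both titles carry the tag R1 and differ in the word automated or manual, so this was not taken as a measure of differences between animals or dissections. Most other genes were close between the organs: 5161 genes (54.6%) were less than 2-fold apart, and 6982 had at least 10 CPM in both. The median log2 ratio of eye over olfactory organ was -0.25 over all genes that entered, so the whole distribution lay slightly towards olfactory organ. Median-of-ratios size factors of both libraries moved that median to -0.02 and turned the order of the counts, to 1139 genes higher in eye and 998 higher in olfactory organ. Of the 100 genes with the most reads in each organ, 26 were shared.

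**Figure D1:**
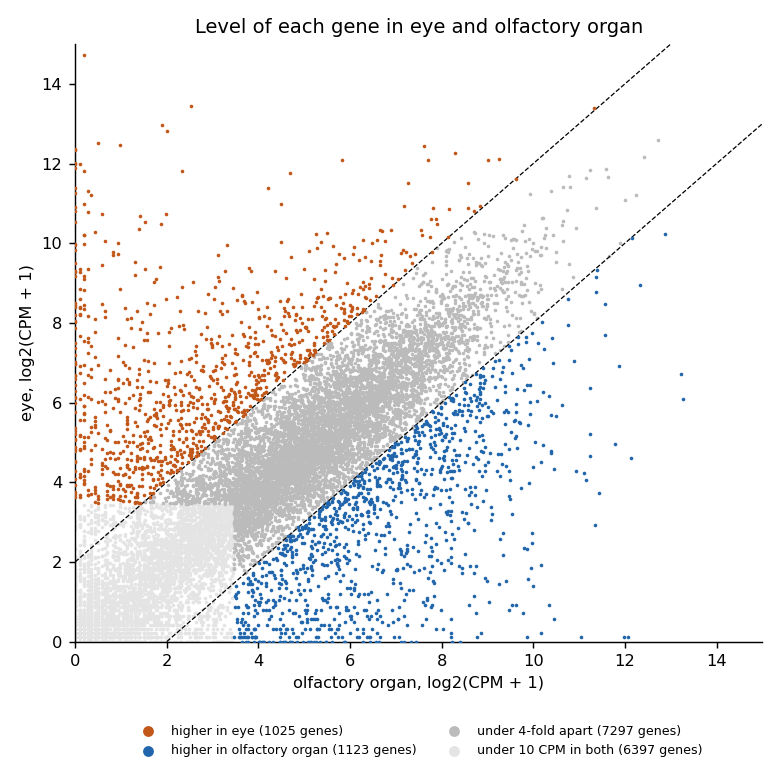
Level of each gene as log2(CPM + 1), eye on the vertical and olfactory organ on the horizontal axis, 1 point a gene. Dashed lines mark 4-fold; 1025 genes lie above the upper line and 1123 below the lower line, among 9445 with at least 10 CPM in either organ.

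The genes higher in eye took 37.2% of the eye reads and 2.31% of the olfactory organ reads. Their median log2 ratio was 3.35, or 3.72 from reads without pseudocount with genes at 0 set to 3 reads. At least 16-fold was reached by 346 genes, 64-fold by 139 and 256-fold by 67. In olfactory organ 228 of the 1025 lay under 1 CPM, 55 of them without a read, while 346 still had at least 10 CPM. The reads were concentrated in few genes: 43 genes held 50% of the eye reads of the list, and 73 genes had 1000 CPM or more in eye.

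The gene with the most reads in eye, LOC106878312, had 26960 CPM there and 2 reads in olfactory organ, which is 0.140 CPM. Its ratio of eye over olfactory organ was 192290, with an interval from 53231 to 1587809 that the 2 reads leave wide. It was also near 0 elsewhere, with no read in optic lobe, 2.97 CPM in statocyst, 0.209 CPM in mantle skin, 1.03 CPM in rim cells, and 0.507 and 0.965 CPM in the automated and manual sucker libraries. LOC106869775 had 5309 CPM in eye and no read in olfactory organ or in any other library. Set against a floor of 3 reads in the olfactory organ library its ratio was 25242, and by the exact interval, which allows 0 reads a wider range, it was at least 20528-fold higher in eye. LOC106868441 had 11172 CPM in eye and 4.77 CPM in olfactory organ, a 2344-fold difference (1849 to 3018). It stayed under 10 CPM in every other library, with statocyst highest at 7.98 CPM. All 3 genes thus stood under 10 CPM in each library other than that of the eye.

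A different set of eye genes was shared with the optic lobe and had its highest level there, as the following genes chosen after their values were seen show. LOC106876298 had 7983 CPM in eye and 2.73 CPM in olfactory organ, but 65721 CPM in optic lobe. Mantle skin had 104 CPM of it, statocyst 23.0 CPM, and rim cells and both sucker libraries under 1 CPM. LOC106875676 had 5564 CPM in eye, 196 CPM in olfactory organ and 29735 CPM in optic lobe, with 430 CPM in statocyst and 2.30 CPM in rim cells. LOC106870394 was high in both organs, with 10720 CPM in eye and 2565 CPM in olfactory organ, a 4.18-fold difference (4.13 to 4.23) that passed the threshold narrowly. Its optic lobe level was 27237 CPM, but it was abundant in every tissue. Mantle skin had 3689 CPM of it, the automated and manual sucker libraries 2817 and 3086 CPM, rim cells 921 CPM and statocyst 771 CPM. In all, optic lobe was above eye for 194 of the 1025 genes and at least 4-fold above for 37. Statocyst was above eye for more of them, 301, and at least 4-fold above for 51. How often either tissue stands above eye among genes outside the list was not counted. The 1025 genes took 29.8% of the optic lobe reads, against 11.8% in statocyst, 4.08% in mantle skin, 3.50% in rim cells, and 3.93 and 4.07% in the automated and manual sucker libraries. The 3 genes just named held 41.2% of the list's optic lobe reads. The list's median level in optic lobe was 3.35 CPM, below the 19.9 CPM of all genes that entered, and in statocyst it was 28.5 CPM, against 35.5 CPM.

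Statocyst was the other tissue that most often held eye genes. At least 10 CPM was reached by 699 of the 1025 in statocyst (68.2%), against 419 in optic lobe, 400 in rim cells, 378 in whole sucker cup and 352 in mantle skin. For comparison, of the 7297 genes less than 4-fold apart between eye and olfactory organ, 87.8% reached 10 CPM in statocyst, 73.6% in optic lobe and 86.4% in mantle skin. Among the 810 eye genes with at least 10 CPM in some other tissue than olfactory organ, statocyst was the highest of these tissues for 479 and optic lobe for 220. This ranking was not made for genes outside the list, so it cannot be called particular to eye genes. A level of at least 10 CPM in statocyst with under 1 CPM in optic lobe was found for 192 eye genes (18.7%), and the reverse for 12 (1.17%). The olfactory organ genes leaned the same way, with 74 (6.59%) and 16 (1.42%), as did the genes less than 4-fold apart, with 199 (2.73%) and 34 (0.466%). LOC106872007 had 4371 CPM in eye and 206 CPM in olfactory organ, with 3608 CPM in statocyst and 4.84 CPM in optic lobe. LOC106873084 had 3622 CPM in eye and 4.07 CPM in olfactory organ, 240 CPM in statocyst and 0.558 CPM in optic lobe.

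Eye was the highest of all 7 tissues for 545 of its 1025 genes. The rule itself sets eye above olfactory organ for these genes, and no such share was counted for genes outside the list. Every other tissue, olfactory organ included, lay under 1 CPM for 95 eye genes. All 5 tissues outside the head organs lay under 1 CPM for 104 eye genes (10.1%) and 13 olfactory organ genes (1.16%). The same was true of 1 of the 7297 genes less than 4-fold apart. By the rule these have reads in both head organs, so none could be limited to a single tissue. All 5 tissues had at least 10 CPM for 202 eye genes (19.7%), 204 olfactory organ genes (18.2%) and 4524 of those 7297 (62.0%).

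The genes higher in olfactory organ took 2.52% of the eye reads and 31.7% of the olfactory organ reads. Their median log2 ratio of eye over olfactory organ was -3.32, or -3.64 from reads with genes at 0 set to 3 reads. The difference was at least 16-fold for 392 genes, 64-fold for 110 and 256-fold for 23. In eye 231 of the 1123 lay under 1 CPM, 43 of them without a read, and 468 still had at least 10 CPM. Their reads were spread over more genes than those of the eye list, with 88 genes holding 50% and 53 genes at 1000 CPM or more in olfactory organ.

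LOC106869698 had a single read in eye, 0.0817 CPM, and 4319 CPM in olfactory organ. Its ratio of olfactory organ over eye was 52870, with an interval from 9489 to 2088294. It was shared with the surface tissues, at 674 CPM in mantle skin, 974 CPM in rim cells, and 973 and 978 CPM in the automated and manual sucker libraries, and had no read in optic lobe or statocyst. LOC106882236 also had a single read in eye, while olfactory organ reached 4032 CPM, 49359-fold more (8859 to 1949623). It had 26.8 CPM in mantle skin, 568 CPM in rim cells, 1041 and 999 CPM in the sucker libraries, 0.558 CPM in optic lobe and 1.12 CPM in statocyst. Mantle skin was below rim cells and whole sucker cup for both genes, and further below for LOC106882236.

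The gene with the most olfactory organ reads, LOC106873795, had 67.4 CPM in eye and 9783 CPM in olfactory organ, where it was 145-fold higher (136 to 156). It stood still higher in the surface tissues, with 38543 CPM in mantle skin, 13440 CPM in rim cells, and 22601 and 20696 CPM in the sucker libraries. Optic lobe had 3 reads and statocyst 6. LOC106878182 had 104 CPM in eye and 9575 CPM in olfactory organ, a 92.5-fold difference (87.5 to 97.9), no read in optic lobe or statocyst, and 2410 to 3614 CPM in rim cells, the sucker libraries and mantle skin. Both genes had a higher level in eye than in optic lobe and statocyst. LOC106870155 did so too, with 495 CPM in eye and 5140 CPM in olfactory organ, no read in optic lobe and 1 in statocyst.

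Mantle skin, rim cells and whole sucker cup held most of the olfactory organ genes. At least 10 CPM was reached by 956 of the 1123 in mantle skin (85.1%), 963 in rim cells (85.8%) and 957 in whole sucker cup (85.2%), close to the 86.4, 87.9 and 84.3% of the genes less than 4-fold apart. In optic lobe only 292 reached it (26.0%) and in statocyst 382 (34.0%), against 73.6 and 87.8% of those genes. The pattern of at least 10 CPM in all 3 surface tissues with under 1 CPM in optic lobe and statocyst was shown by 209 of the 1123 genes, by 29 of the 7297 genes less than 4-fold apart, and by none of the 1025 eye genes. The olfactory organ list took 28.1% of the mantle skin reads, 21.4% of the reads of each sucker library and 19.7% of the rim cell reads, but 3.74% in statocyst and 2.25% in optic lobe.

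Olfactory organ was the highest of the 7 tissues for 669 of its 1123 genes, again with no such share counted for genes outside the list. Mantle skin was above it for 316, rim cells for 252 and whole sucker cup for 229, while statocyst was above it for 42 and optic lobe for 5. These counts too were made for the list only. For 13 genes every other tissue lay under 1 CPM. Among these, LOC106867307 had 6 reads in eye (0.490 CPM) and 131 CPM in olfactory organ, where it was 267-fold higher (122 to 729).

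A few olfactory organ genes had a high level in statocyst or optic lobe. In 5 of the 1123 genes statocyst had at least 10 CPM and optic lobe, mantle skin, rim cells and whole sucker cup under 1 CPM. The pattern was more frequent in the eye list, with 37 of 1025 genes, and was not counted for genes outside both lists. Of the 5 olfactory organ genes, LOC106867946 had 0.817 CPM in eye and 67.1 CPM in olfactory organ, and 1424 CPM in statocyst. LOC106876803 had 0.327 CPM in eye and 22.4 CPM in olfactory organ, and 874 CPM in statocyst. Both were thus far higher in statocyst than in either head organ. LOC106878154 had 436 CPM in eye and 2649 CPM in olfactory organ, with 2437 CPM in optic lobe and 22.5 CPM in statocyst. It was present in skin and suckers as well, at 253 CPM in mantle skin, 459 CPM in rim cells, and 669 and 657 CPM in the automated and manual sucker libraries.

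**Figure D2:**
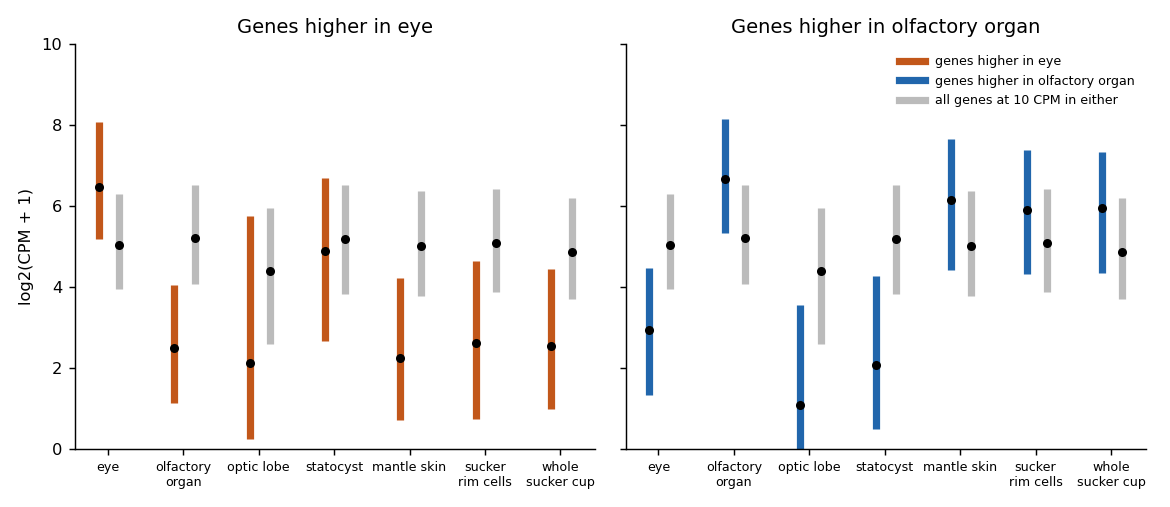
Levels of the genes higher in eye (left) and higher in olfactory organ (right) in 7 tissues, as log2(CPM + 1). Coloured bars span the middle 50% of the list with the median as a dot, and grey bars the same for all 9445 genes with at least 10 CPM in either organ; the olfactory organ list has its median at 1.12 CPM in optic lobe and at 70.0 CPM in mantle skin.

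**Figure D3:**
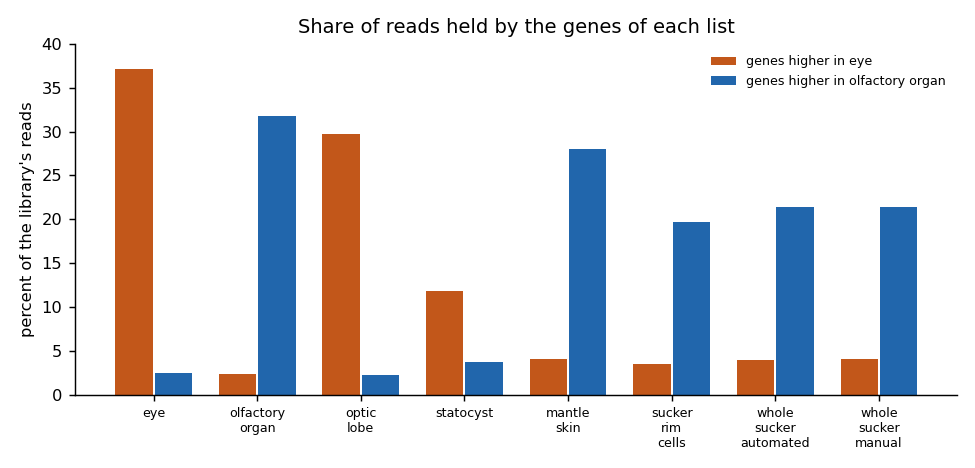
Percent of the reads of each of the 8 libraries held by the 1025 genes higher in eye and the 1123 genes higher in olfactory organ. The eye list holds 29.8% of the optic lobe reads, and the olfactory organ list 28.1% of the mantle skin reads.

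Pairs of tissues that include neither head organ were then compared by the same rule, as a description of the lists in libraries that did not choose them. The pairs were chosen after values were seen, and each tissue but the sucker cup again has 1 library. Entry at 10 CPM in either tissue of a pair favours genes high in one of them, so shares are given of all genes of a list, entered or not.

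Between optic lobe and mantle skin, 8.11% of all genes that entered were higher in optic lobe and 23.1% higher in mantle skin. Of the 1025 eye genes, 224 (21.9%) were higher in optic lobe and 94 (9.17%) higher in mantle skin, while 510 entered. Of the 1123 olfactory organ genes, 3 (0.267%) were higher in optic lobe and 767 (68.3%) higher in mantle skin. Of these 1123, 668 reached 10 CPM in mantle skin alone of the pair and 4 in optic lobe alone. Of the genes less than 4-fold apart between the head organs, 5.44% were higher in optic lobe and 13.0% higher in mantle skin. Over all genes of each list, the median log2 ratio of optic lobe over mantle skin was 0.00 for the eye genes, -3.61 for the olfactory organ genes and -0.37 for the genes less than 4-fold apart.

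Genes with at least 10 CPM in both tissues of the pair entered whichever tissue was higher. Of 261 such eye genes, 93 (35.6%) were higher in optic lobe and 21 (8.05%) higher in mantle skin. Of 288 such olfactory organ genes, 2 (0.694%) were higher in optic lobe and 132 (45.8%) higher in mantle skin. Of 4964 such genes less than 4-fold apart between the head organs, 244 (4.92%) were higher in each tissue.

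Statocyst and whole sucker cup share no library with that pair. Over all genes that entered, again not the base of the list shares, 17.5% were higher in statocyst and 14.3% higher in whole sucker cup. Of the 1025 eye genes, 445 (43.4%) were higher in statocyst and 50 (4.88%) higher in whole sucker cup. Of the 1123 olfactory organ genes, 28 (2.49%) were higher in statocyst and 677 (60.3%) higher in whole sucker cup. Of the genes less than 4-fold apart between the head organs, 8.61% were higher in statocyst and 6.21% higher in whole sucker cup. The median log2 ratio of statocyst over whole sucker cup was 1.75 over all eye genes, -2.93 over all olfactory organ genes and 0.51 over the genes less than 4-fold apart. At 10 CPM in both tissues, 142 of 344 eye genes (41.3%) were higher in statocyst and 22 (6.40%) higher in whole sucker cup. Of 360 such olfactory organ genes, 14 (3.89%) were higher in statocyst and 118 (32.8%) higher in whole sucker cup.

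In the other 4 pairs of optic lobe or statocyst with skin, rim cells or cup, optic lobe or statocyst was higher for 20.3 to 44.3% of the eye genes, against 7.14, 7.77, 15.1 and 18.0% of all genes that entered. Mantle skin, rim cells or whole sucker cup was higher for 61.5 to 66.8% of the olfactory organ genes, against 14.3, 14.6, 23.1 and 24.7%. Between optic lobe and rim cells, 208 eye genes were higher in optic lobe and 143 higher in rim cells, with a median log2 ratio of -0.02 over all eye genes.

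**Figure D4:**
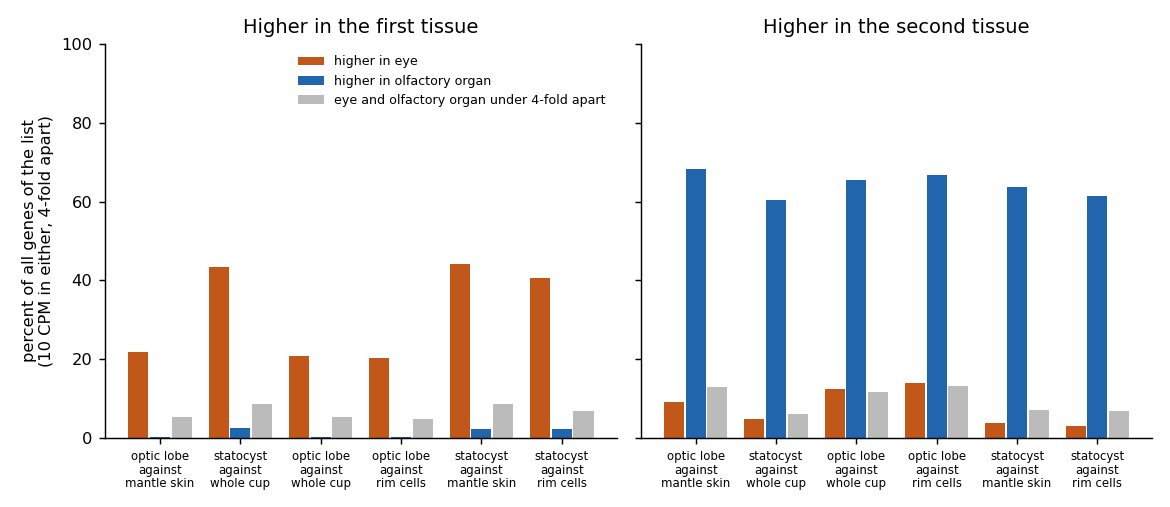
Percent of all genes of each list that have at least 10 CPM in either tissue and are at least 4-fold higher in the first (left) or the second tissue (right) of 6 pairs that include neither eye nor olfactory organ. Bars give genes higher in eye, genes higher in olfactory organ, and genes less than 4-fold apart between them; the olfactory organ genes reach 68.3% in mantle skin in the pair with optic lobe.

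Some eye genes were instead shared with mantle skin and sucker. Mantle skin was above eye for 9 of the 1025 genes, whole sucker cup for 10 and rim cells for 29. Such counts were not made for genes outside the list. In a run of 4 neighbouring eye genes, 3 were highest in mantle skin. LOC106868320 in it had 2035 CPM in eye and 21.6 CPM in olfactory organ, with 3474 CPM in mantle skin, 1312 and 1278 CPM in whole sucker cup (automated and manual), 256 CPM in statocyst, 100 CPM in optic lobe and 20.3 CPM in rim cells. LOC106868323 had 2681 CPM in eye and 17.5 CPM in olfactory organ, with 4090 CPM in mantle skin and 24.8 CPM in rim cells. Olfactory organ and rim cells were thus the lowest tissues for both genes, although whole sucker cup, of which the rim is a part, was high. LOC106868319, of the same run, was also lowest in these tissues, with 227 CPM in eye, 1.68 CPM in olfactory organ, 339 CPM in mantle skin and 2.09 CPM in rim cells.

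The reference table, whose assembly is ASM119413v2, places 13929 of the measured genes in order on chromosomes, and this order was used to see which genes neighbour each other. Of the 930 eye genes placed, 254 (27.3%) stood next to another eye gene. Among the 12999 genes outside the list, 11.5% stood next to an eye gene. Of the 958 olfactory organ genes placed, 302 (31.5%) stood next to another of their list, against 11.5% of the 12971 genes outside it. Eye genes formed 22 runs of 3 or more and olfactory organ genes 33. How many neighbours are close copies, among which read assignment would be uncertain, was not tested.

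The longest run comprised 9 eye genes. Their eye levels ran from 77.2 CPM for LOC106869768 to 5820 CPM for LOC106869778, and together they took 272206 reads, 2.22% of the eye library. Olfactory organ had 10 reads of all 9 genes, optic lobe none, statocyst 10, mantle skin 3, rim cells 14 and both sucker libraries 14. The run includes LOC106869775, described above, and LOC106869780, which had 4134 CPM in eye and no read in any other library. In a further run of 6 eye genes, olfactory organ and mantle skin had low but countable levels of 4. LOC106875839 in it had 3467 CPM in eye, 24.7 CPM in olfactory organ and 19.9 CPM in mantle skin. LOC106875836 had 995 CPM in eye, 8.97 CPM in olfactory organ and 7.53 CPM in mantle skin. The rim cells, the deepest library, had no read of any of these 6 genes, and optic lobe had none either.

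Olfactory organ genes had no run above 5, a length reached by 4 runs. In the first of these by identifier, LOC106871768 had 2.70 CPM in eye and 429 CPM in olfactory organ, 331 CPM in mantle skin, 397 CPM in rim cells, and 273 and 395 CPM in the automated and manual sucker libraries. LOC106871686, of the same run, had 0.408 CPM in eye and 121 CPM in olfactory organ, with 92.1 to 100 CPM in mantle skin, rim cells and the sucker libraries. A run of 4 had its highest level in olfactory organ and its next in whole sucker cup. LOC106877398 in it showed 4.57 CPM in eye and 1004 CPM in olfactory organ, 229 and 231 CPM in the sucker libraries, 66.4 CPM in rim cells and 8.99 CPM in mantle skin, and optic lobe had no read of any of the 4 genes.

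**Figure D5:**
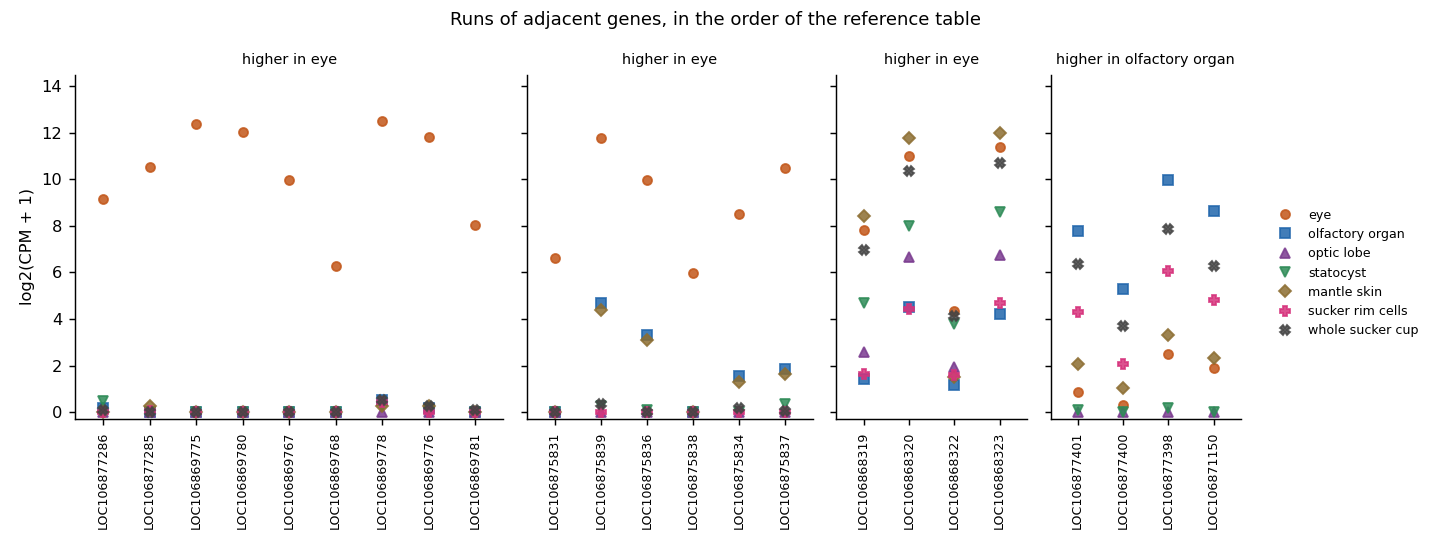
Levels, as log2(CPM + 1), of the genes of 3 runs higher in eye (9, 6 and 4 adjacent genes) and 1 run of 4 higher in olfactory organ, in the order of the reference table, with 1 symbol per tissue. The 9 genes of the first run stand at 77.2 to 5820 CPM in eye and near 0 in every other tissue.

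Genes at the limits of the rule were told apart by small differences. LOC106880481, just inside 4-fold, had 44.3 CPM in eye and 10.3 CPM in olfactory organ. LOC106871436, just outside, had 10.5 CPM in eye and 1.89 CPM in olfactory organ. On the other side LOC106879800 was inside, with 30.7 CPM in eye and 126 CPM in olfactory organ, and LOC106882649 outside, with 8.99 CPM in eye and 38.9 CPM in olfactory organ. At the entry level LOC106875552 had 10.1 CPM in eye and 0.421 CPM in olfactory organ and entered, while LOC106870624, at 9.88 CPM in eye and 0.981 CPM in olfactory organ, did not. LOC106876405 entered with 10.02 CPM in olfactory organ and LOC106882531 missed entry with 9.81 CPM there, each with 1 read in eye.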

How the data were processed

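Bulk RNA was measured in 8 libraries (16 samples, 2 lanes each). Tissues were dissected by hand and libraries made with the Kapa mRNA HyperPlus kit, per the labels' protocols, and Trim Galore and kallisto are named in the submitters' processing notes. The build, annotation, tool versions and lane merging are not given in sources used here. The authors deposited 1 table of log2(CPM + 1) values, a unit read from the values: inverted columns sum to 1000000, and 100% of values are whole multiples of 1 read within 0.01 reads, which gave reads per gene. Depth ran from 4782744 (mantle skin) to 36916825 reads (rim cells).

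Genes at 10 CPM in eye or olfactory organ and 4-fold apart were called (pseudocount 1 CPM). Whole sucker cup is the mean of its libraries. Single levels carry exact Poisson and ratios of reads exact Clopper-Pearson 95% intervals, covering counting error only. A ratio to 0 reads uses a floor of 3 reads. Python 3.11.15, NumPy, pandas and SciPy 1.17.1 were used, and the calls were tested on simulated data.

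Members and lists were chosen with earlier results of these data known. The rule for names took, in each direction, the genes with the largest ratio and with most reads (at most 2 identifiers each), those nearest the limits, those with a name in the reference, and the longest run; other identifiers were chosen after their values were seen. Of 15842 identifiers, 14305 were found in the reference table. It holds no functions, proteins or promoters, so lists by product name and sequence patterns were not used here.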

Additional observations from a re-analysis of the deposited data

How the results depend on the processing

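No paired analysis was possible because each organ has 1 library, and the shared numbers of the samples are sequencing lanes merged in the deposited table. The counts of genes higher in eye and in olfactory organ stayed within 1.5 times of 1025 and 1123 with pseudocounts of 0.1 and 5 CPM, without a floor, with either set of size factors, with thinning to equal depth, and when the counting bound itself had to reach 4-fold (952 and 1045 genes). No gene called higher in one organ was called higher in the other under any of these, while signs of genes not called were not followed. With entry raised to 50 CPM, which leaves fewer genes to compare, 678 were higher in eye. Within the lists this left 144 eye genes higher in optic lobe than mantle skin, 220 higher in statocyst than whole sucker cup, and 480 and 424 olfactory organ genes higher in mantle skin than optic lobe and in whole sucker cup than statocyst. A threshold of 8-fold, stricter by construction, gave 595 genes higher in eye and 664 higher in olfactory organ. Under it 108 eye genes were higher in optic lobe than mantle skin, 237 higher in statocyst than whole sucker cup, and 500 olfactory organ genes higher in mantle skin than optic lobe. A pseudocount of 5 CPM gave 261 eye genes higher in statocyst than whole sucker cup. Using 1 sucker library gave 452 (automated) or 439 (manual) in place of 445. Comparisons between the other tissues and these repeats of them were chosen after seeing the data. Shares by sequence motif were not run. Of 73 named genes none changed sign, but the size of many ratios depended on the setting. With a pseudocount of 5 CPM 37 ratios moved by more than their counting error, and with either set of size factors 16 did. Genes without a read in one organ have no upper limit of the ratio and so could not count as moved. LOC106869775 is one, although a pseudocount of 5 CPM took its log2 ratio from 12.37 to 10.05. LOC106880481 and LOC106879800, just inside 4-fold, fell below it with a pseudocount of 5 CPM, to log2 ratios of 1.69 and -1.87. Called genes further inside fell below it too at that setting: LOC106875552 (1.48), LOC106868322 (1.96), LOC106876405 (-1.56), LOC106874911 (-1.90) and LOC106881570 (-1.87). With size factors over 8 libraries LOC106872434, at 4550 CPM in olfactory organ, fell to -1.78. For genes of few reads, depth limits the ratio: a single read spans 0.00207 to 0.455 CPM in eye.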
